A study of Mus musculus with 2 samples.

Results

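The mouse genes named Zfp with a number from 500 to 999 encode zinc-finger proteins, and the peaks described here are those that the authors' annotation gave to such a gene in hippocampus. Members were all peaks whose assigned symbol was Zfp followed by a number in that range, leaving out Zfp746, which encodes PARIS itself. This gave 584 peaks of 99797, assigned to 162 symbols. In the GENCODE M21 annotation 202 protein-coding genes carry such a name. Of these, 158 had an assigned peak and 44 had none. The other 4 symbols, Zfp572, Zfp939, Zfp997 and Zfp998, held 14 peaks and were not protein-coding in that annotation. Names that end in a letter, such as Zfp804a and Zfp804b, fall outside the rule.

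The study mapped where PARIS sits on chromatin, using CUT&Tag, in which an antibody guides a transposase to cut and tag DNA beside the bound protein. The anti-FLAG library came from the hippocampus of untreated C57BL/6J mice of the genotype CamK-PARIS, and an IgG library of the same genotype and tissue served the authors as control. There was 1 library per antibody, so no difference below has a replicate check and no test across samples was possible. The labels used here spell out neither what CamK stands for nor the age, sex or number of the animals, no library from mice without the transgene is described, and the IgG library is not analysed here beyond its use by the authors. A peak list holds no expression values, so the tissue was not checked against marker genes, and read depth is unknown.

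Most of these genes belong to the C2H2 class, in which a pair of cysteines and a pair of histidines hold a zinc ion in each finger and a row of fingers reads DNA. Many carry a KRAB domain, which recruits the corepressor TRIM28 and histone methylation to silence retroelements and some genes. KRAB zinc-finger genes multiplied by tandem duplication and lie in clusters of similar copies. PARIS is itself a KRAB zinc-finger protein and a substrate of the ubiquitin ligase parkin, and is known to repress the gene of the coactivator PGC-1alpha through insulin response sequences.

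Translated proteins of 131 of the 202 genes matched a KRAB pattern and those of 71 did not. At least 5 fingers were found in 172 genes and no finger in 8. The median was 11 fingers in KRAB genes and 7 in the others. Zfp619 had the most, with 33, followed by Zfp521 and Zfp646 with 27 each and by Zfp748 and Zfp788 with 23 each.

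Start regions of 166 of the 202 genes are in the RefSeq promoter table on GRCm38 (mm10), each running from 250 bases before the start to 50 after it. The first 4 below are shown because each lies under or beside a tall start peak, Zfp719 and Zfp788 being KRAB genes and Zfp827 and Zfp710 not. Letters run 5′ to 3′ on the gene's strand. Capitals mark every match, on either strand, to TATTTTT or TATTTTG (an insulin response sequence), CCGGAAG (an ETS factor site), GGGCGG (an Sp factor site), ATGGCGG (the core of a YY1 site) and GCATGCGC (the core of an NRF1 site).
Zfp719, chr7:43579336-43579635, plus strand: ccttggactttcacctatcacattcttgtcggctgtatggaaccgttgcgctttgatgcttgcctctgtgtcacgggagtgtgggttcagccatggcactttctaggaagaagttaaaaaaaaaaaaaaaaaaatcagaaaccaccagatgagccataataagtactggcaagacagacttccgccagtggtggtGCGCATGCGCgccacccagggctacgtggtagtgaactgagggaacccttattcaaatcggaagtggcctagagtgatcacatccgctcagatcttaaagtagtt
Zfp788, chr7:41633281-41633580, plus strand: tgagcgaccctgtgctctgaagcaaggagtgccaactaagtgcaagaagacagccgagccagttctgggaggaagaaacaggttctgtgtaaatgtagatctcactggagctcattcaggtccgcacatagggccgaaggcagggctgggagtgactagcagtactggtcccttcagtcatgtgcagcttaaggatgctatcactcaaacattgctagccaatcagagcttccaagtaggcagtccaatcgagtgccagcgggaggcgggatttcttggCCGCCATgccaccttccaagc
Zfp827, chr8:79028187-79028486, plus strand: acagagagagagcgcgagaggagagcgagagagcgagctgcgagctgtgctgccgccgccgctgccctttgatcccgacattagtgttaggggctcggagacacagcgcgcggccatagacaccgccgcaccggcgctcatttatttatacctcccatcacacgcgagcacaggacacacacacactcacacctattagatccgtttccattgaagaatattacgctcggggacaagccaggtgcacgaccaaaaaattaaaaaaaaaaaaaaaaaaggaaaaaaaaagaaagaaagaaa
Zfp710, chr7:80024564-80024863, plus strand: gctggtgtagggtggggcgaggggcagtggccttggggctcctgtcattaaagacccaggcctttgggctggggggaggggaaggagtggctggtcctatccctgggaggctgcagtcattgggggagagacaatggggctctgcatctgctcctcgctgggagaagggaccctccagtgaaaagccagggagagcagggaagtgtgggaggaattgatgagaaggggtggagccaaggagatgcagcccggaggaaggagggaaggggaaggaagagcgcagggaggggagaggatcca

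The next 4 are shown because they are near copies with unlike calls. Zfp966 and Zfp967, on chromosome 2, have the same 300 bases, printed once as Zfp966, and Zfp970 differs from them by 12 edits. Zfp758 and Zfp943, on chromosome 17, differ by 16 edits. Both counts include an offset of the windows.
Zfp966, chr2:175931051-175931350, minus strand: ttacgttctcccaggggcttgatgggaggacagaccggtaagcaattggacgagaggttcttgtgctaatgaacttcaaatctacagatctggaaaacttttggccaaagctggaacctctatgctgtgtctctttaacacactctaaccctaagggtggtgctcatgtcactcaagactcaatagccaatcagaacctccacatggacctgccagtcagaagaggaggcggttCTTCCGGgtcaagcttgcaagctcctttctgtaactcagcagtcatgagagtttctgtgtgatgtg
Zfp970, chr2:177464492-177464791, plus strand: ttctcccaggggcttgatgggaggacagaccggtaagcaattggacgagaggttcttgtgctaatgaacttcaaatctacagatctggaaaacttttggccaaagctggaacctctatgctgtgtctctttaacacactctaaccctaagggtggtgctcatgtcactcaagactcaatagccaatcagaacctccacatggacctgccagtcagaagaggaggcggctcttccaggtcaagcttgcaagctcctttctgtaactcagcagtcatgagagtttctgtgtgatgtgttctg
Zfp758, chr17:22361213-22361512, plus strand: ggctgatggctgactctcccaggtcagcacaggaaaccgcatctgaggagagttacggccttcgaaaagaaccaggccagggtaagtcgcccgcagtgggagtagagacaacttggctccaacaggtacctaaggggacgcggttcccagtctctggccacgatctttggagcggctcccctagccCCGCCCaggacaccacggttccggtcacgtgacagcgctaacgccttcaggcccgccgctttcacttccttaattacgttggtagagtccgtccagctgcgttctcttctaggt
Zfp943, chr17:21962309-21962608, plus strand: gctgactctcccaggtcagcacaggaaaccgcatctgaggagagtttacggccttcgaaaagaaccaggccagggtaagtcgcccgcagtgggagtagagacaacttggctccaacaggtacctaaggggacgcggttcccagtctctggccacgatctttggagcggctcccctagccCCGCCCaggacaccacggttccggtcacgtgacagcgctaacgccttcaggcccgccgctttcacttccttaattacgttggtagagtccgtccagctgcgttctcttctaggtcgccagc

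Neither Zfp966 nor Zfp967 had a peak within 1 kb of its start. Zfp970 had 1, of maximum signal 154 and 248 bp wide. That peak, at chr2:177465575-177465822, lay 842 bp from the start of Zfp970 and wholly outside its printed start region. The near-copy letters of Zfp970 compared above therefore do not carry the peak. Zfp943 had a start peak of maximum signal 56 and Zfp758 had none. The peak at Zfp943 also lay within 1 kb of the start of Zfp942, so it cannot be given to either gene. Maximum signal is the highest coverage inside a peak and total signal is coverage summed over its bases, both in the authors' units, whose scaling is not given in the sources used here. The peaks at Zfp970 and Zfp943 were both of constant height, meaning that total signal reached at least 99% of maximum signal times width, as in 357 of the 584 member peaks (61.1%) and 63.3% of all peaks. Around the starts of Zfp966 and Zfp967, 0% of the 31-base words within 1 kb occur once in the genome, against 11.9% at Zfp970, 67.1% at Zfp758 and 69.8% at Zfp943. Among all 13695 pairs of the 166 start regions, 11 pairs were at least 90% identical, and 2 of the 11 genes in them, Zfp970 and Zfp943, had a start peak.

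The share of these genes with a peak at the start was near that of protein-coding genes at large. A peak lay within 1 kb of the start of 83 of the 202 genes (41.1%, 95% Wilson interval 34.5 to 48.0%), beside 39.3% of all 21938 protein-coding genes. Without peaks of constant height it was 55 genes (27.2%), beside 27.8% of all. The intervals cover counting error only, and cluster copies are not independent of each other. Another protein-coding start lay within 1 kb of 26 of these starts, and 17 of those 26 had a peak (65.4%), against 66 of the 176 that stood alone (37.5%). Over all genes the shares were 56.4% and 36.9%. For 9 of the 83 genes every start peak was assigned to another symbol.

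KRAB genes had start peaks less often than the others. The shares were 40 of 131 (30.5%, 23.3 to 38.9%) and 43 of 71 (60.6%, 48.9 to 71.1%), a difference of -30.0 percentage points with a 95% interval of -42.8 to -15.7 built from the Wilson bounds of both shares. Without constant-height peaks the shares were 16.8% and 46.5%. Other genes with at least 5 fingers showed the same order, 69 of 176 with a KRAB match (39.2%) and 91 of 161 without (56.5%).

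**Figure D1:**
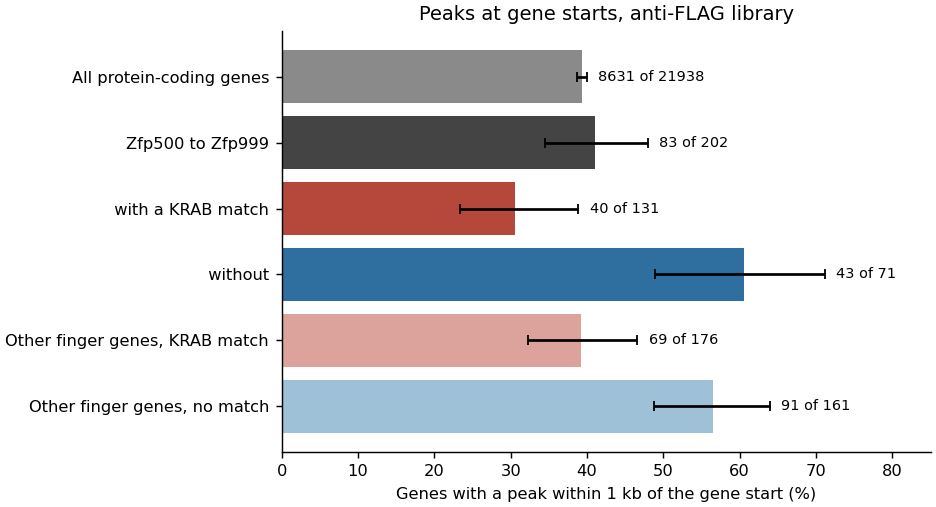
Share of genes with a peak within 1 kb of the gene start in the anti-FLAG library, in percent, for all protein-coding genes, the Zfp500 to Zfp999 genes and other genes with at least 5 fingers. Whiskers are 95% Wilson intervals and the numbers beside them are genes with a peak of all genes in the group. KRAB genes of the range stand at 30.5% and the rest of the range at 60.6%.

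Sequence features differed between the groups along with the peaks. The median share of unique 31-base words around the start was 88.9% in KRAB genes and 99.4% in the others, and all 39 genes under 50% carried a KRAB match. Starts rich in CpG, with an observed to expected ratio of at least 0.6, made up 43 of 131 KRAB genes (32.8%) and 52 of 71 others (73.2%). Among starts with at least 90% unique words a peak was found at 23 of 62 KRAB genes (37.1%) and 41 of 69 others (59.4%). Among CpG-rich starts it was 18 of 43 (41.9%) and 32 of 52 (61.5%), beside 58.4% of all CpG-rich starts. Among the remaining starts it was 22 of 88 (25.0%) and 11 of 19 (57.9%), beside 24.2% of all. KRAB genes thus stood below all genes at CpG-rich starts and near them at the rest, and the other genes near all genes at CpG-rich starts and above them at the rest. KRAB genes had the lower share of the pair in each of these subsets. The part of copy number, CpG content or expression in the difference was not tested.

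**Figure D2:**
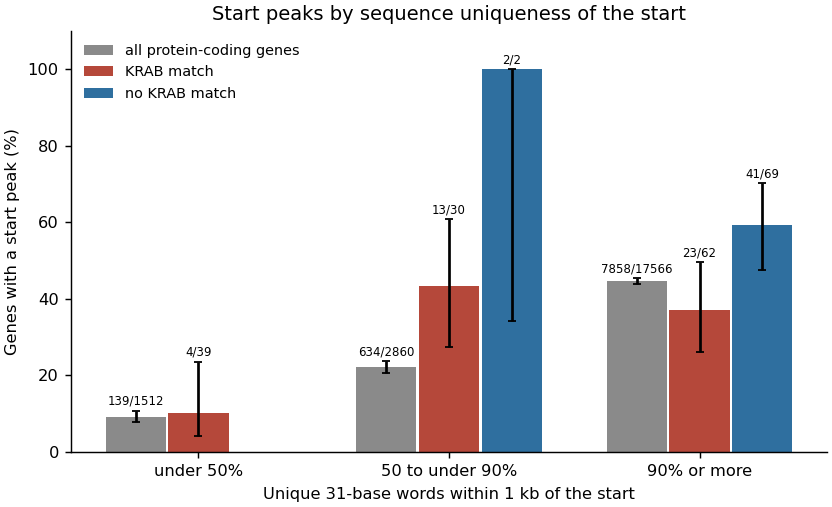
Share of genes with a start peak, in percent, by the share of 31-base words within 1 kb of the start that occur once in the genome, for all protein-coding genes, KRAB genes and other genes of the range. Whiskers are 95% Wilson intervals and the fractions are genes with a peak over genes in the bin. Under 50% unique words 4 of 39 KRAB genes had a peak, and no gene without KRAB fell in that bin.

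Under 50% unique words the share was 10.3% for KRAB genes and 9.19% for all genes. Between 50% and 90% it was 13 of 30 KRAB genes (43.3%) and 22.2% of all genes. At 90% or more it was 37.1% for KRAB genes and 44.7% for all genes. KRAB genes stood above all genes in the middle bin, where their interval was 27.4 to 60.8%. In the top bin their interval, 26.2 to 49.5%, included the share of all genes, so no lower position can be read there. The range as a whole gave 46.9% in the middle bin (15 of 32) and 48.9% in the top bin (64 of 131).

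Heights of start peaks overlapped between the groups. The median of the highest start peak was 120 in the 40 KRAB genes and 156 in the 43 others, beside 136 over all genes with a start peak. The lowest values were 24 in KRAB genes and 44 in the others, and the lowest to highest values of the groups overlapped. At starts with at least 90% unique words the medians were 158 and 156, and at starts that were not CpG-rich 141.5 and 145, so the lower median of KRAB genes was not seen in the former subset. At CpG-rich starts they were 102.5 and 157.5. Only 4 KRAB genes passed 200, Zfp719 at 428, Zfp788 at 419, Zfp715 at 238 and Zfp811 at 216, against 16 of the others.

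**Figure D3:**
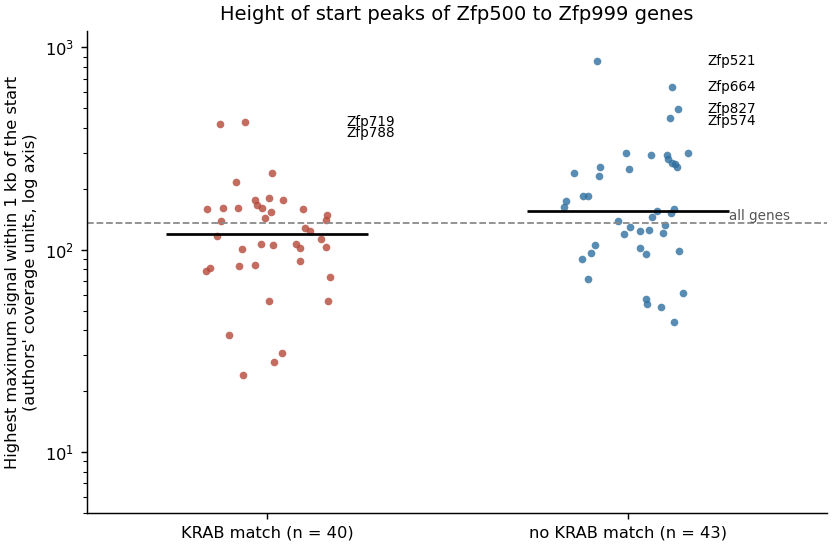
Highest maximum signal within 1 kb of the start, in the authors' coverage units on a log axis, for each gene of the range that had a start peak, split by KRAB match. Black lines are group medians, 120 and 156, the dashed line is the median of all genes with a start peak, 136, and genes above 400 are named.

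Zfp521, a co-regulator of neural differentiation, had the tallest member peak, with a maximum signal of 854 over 1273 bp at chr18:13972264-13973536 across its start. It ranked 22 among all peaks. The second, at 706, was assigned to Zfp706, known as a repressor of Klf4 in embryonic stem cells, but lay far from it, at chr15:36966784-36968992, beyond the 3′ end of the gene and outside any protein-coding gene. The start of Zfp706 itself had a peak of 184.

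Zfp827, which links the NuRD complex to telomeres, had the largest total signal, 546472, in a peak of 3624 bp and maximum 493 that covers the start region printed above. Zfp574 had a peak of 448 at a start it shares with the glutamate receptor subunit gene Grik5, so the peak cannot be given to either gene. The peaks of Zfp719 (chr7:43579493-43580176) and Zfp788 (chr7:41632748-41633982) crossed their starts. The peak of Zfp974, at 452, lay 2489 bp upstream, and Zfp974 had none within 1 kb.

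Zfp638, an RNA-binding protein that silences retroviral DNA with the HUSH complex, had a peak of 391 at an internal transcript start and none at its outermost start. The peak with the largest total signal assigned to Zfp595, 221272, lay in another gene's body. Chosen after its values were seen, Zfp664 had a start peak of 635, the second highest start peak of the range, which the authors' table gives to Ccdc92, whose start lies within 1 kb.

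**Figure D4:**
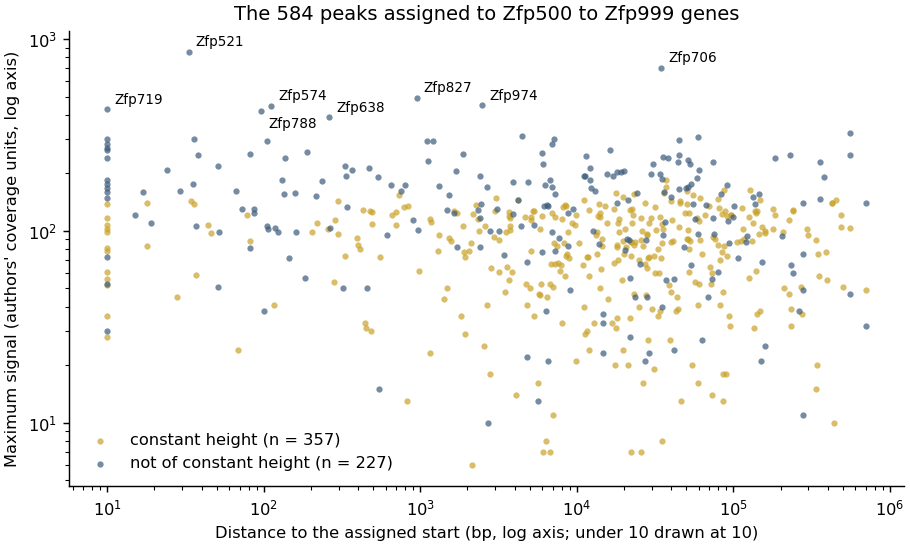
Maximum signal of each of the 584 member peaks, in the authors' coverage units, against the distance in bp to the assigned start, both on log axes, with peaks of constant height in yellow and the rest in blue. The 8 tallest are named, and 6 of them lie within 1 kb of an assigned start.

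Member peaks lay in promoters more often and in introns less often than peaks at large, by intervals for counting error alone. Promoters, within 3 kb of an assigned start, held 169 (28.9%, 25.4 to 32.7%) against 24.6% of all peaks, introns 171 (29.3%, 25.7 to 33.1%) against 38.0% and distal intergenic sequence 203 (34.8%) against 31.9%. The 1007 peaks assigned to other genes with at least 5 fingers showed the same order for promoters (31.48%) and introns (30.98%). Those differences were thus not particular to this range. The distal intergenic share of those 1007 peaks was 30.19%, below that of all peaks. The median maximum signal was 99 (quartiles 59.75 and 138) against 101, and the median width 381 bp against 363. Inside the assigned gene's own body lay 235 peaks, inside another protein-coding gene 26 and outside protein-coding genes 323.

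Peaks were spread unevenly over the symbols. A single peak was assigned to 61 of them, and 12 symbols with at least 10 peaks held 212. Zfp608, which regulates gene expression in thymocytes, had 35, of which 16 lay over 100 kb from its start, and its tallest, of maximum signal 324, stood at -556235 bp. Its start peak reached 293. Zfp536, a repressor of neuronal differentiation, had 26 peaks with 14 over 100 kb away and none within 1 kb of its outermost start.

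Zfp706 and Zfp619 had 22 each, Zfp831 18, Zfp648 17, Zfp507 16 and Zfp827 13. Of the 22 peaks of Zfp619, 16 were over 100 kb away and 3 were not of constant height. None of the 8 genes counted as part of a zinc-finger cluster, and Zfp619 alone among them has a KRAB match. In the whole range, 113 of 202 genes counted as clustered and 131 had a KRAB match. Clusters were built from genes with at least 5 fingers, so Zfp608, Zfp706 and Zfp831, with 1, 1 and 2, could not count. The table assigns each peak to a single symbol, so these peak counts describe the assignment and not binding by the gene.

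Among genes of neural and developmental regulators, 6 of the 9 that fall in the range had a start peak, beside 39.3% of all genes and 41.1% of the range. A list this short cannot be set against those shares with any precision. The maxima were 854 at Zfp521, 493 at Zfp827, 301 at Zfp703, a corepressor, 98 at Zfp711, a gene of X-linked intellectual disability and the X-linked member named here, and 95 at Zfp503, a regulator of striatal development. Zfp609, which acts in cortical neuron migration, had 72. Zfp516, Zfp536 and Zfp618 had none at the outermost start, although peaks of 212, 248 and 240 were assigned to them elsewhere. Zfp516 and Zfp536 each had 1 peak within 1 kb of another assigned start, at 470 and 0 bp from it.

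Of the 4 retroelement or imprinted-gene silencers, Zfp809, which recognises the primer binding site of murine leukaemia viruses, had the only start peak, at 38, which makes 1 of 4. Zfp568, which represses a placental Igf2 transcript, had a peak of 47 in an intron. Its last exon carried a peak of 67 that was assigned to Zfp14. Zfp819 had 3 peaks of 38, 49 and 145 upstream, and Zfp932 had none. Of the 5 RNA and ribosome factors, Zfp622, which matures the large ribosomal subunit, had a start peak of 239 and Zfp706 had a start peak of 184, which makes 2 of 5. Zfp598, the ubiquitin ligase of collided ribosomes, and Zfp638 had peaks only away from the outermost start. Of these, 1 of Zfp598 and 3 of Zfp638 lay within 1 kb of another assigned start. Zfp830 had no peak.

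Clusters were chains of at least 3 genes, each with at least 5 fingers, with neighbouring starts within 250 kb. Of the 202 genes, 113 belonged to them. Genes with fewer fingers counted as isolated even inside a cluster's span. Among KRAB genes this held for Zfp978, Zfp979, Zfp972, Zfp935, Zfp688 and Zfp781, none of which had a start peak. Start peaks were found at 41 of 113 clustered genes (36.3%) and 42 of 89 isolated genes (47.2%), a difference of -10.9 points with an interval of -24.1 to 2.70, which includes 0. Among KRAB genes it was 32 of 99 clustered genes (32.3%) and 8 of 32 counted as isolated (25.0%). Among the other genes it was 9 of 14 clustered (64.29%) and 34 of 57 isolated (59.65%). Within each group clustered genes thus had the higher share, opposite to the pooled order, with overlapping intervals. Of the 113 clustered genes, 99 carried a KRAB match. The KRAB genes named above are among the 32 isolated KRAB genes, so the order of the shares among KRAB genes depends on the finger rule.

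**Figure D5:**
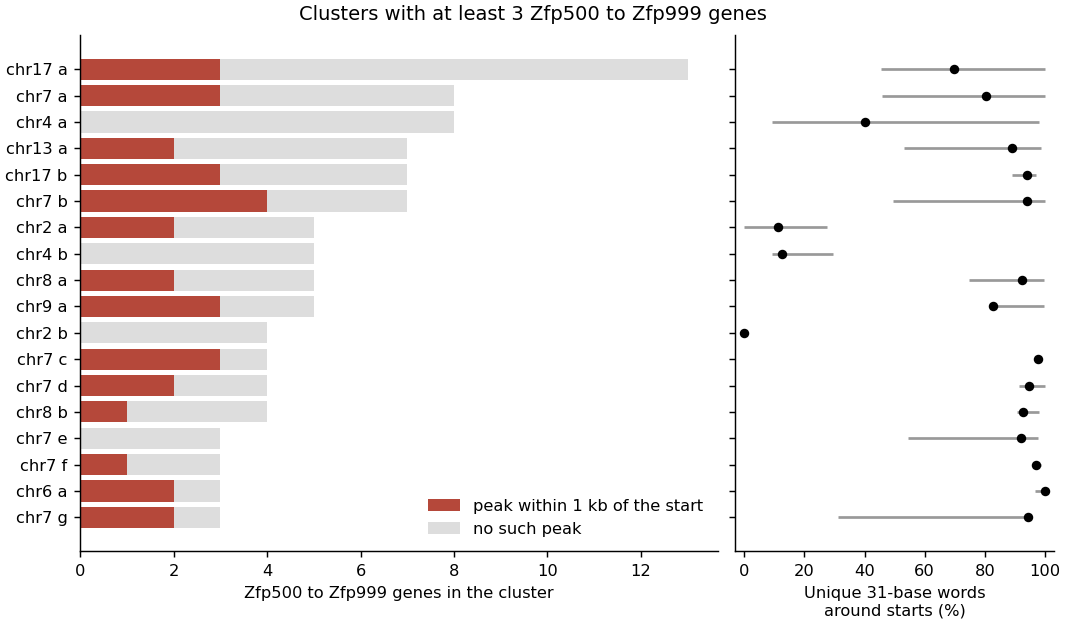
Left, genes of the range in each cluster that holds at least 3 of them, in red those with a peak within 1 kb of the start. Right, the median (point) and range (line) over these genes of the share of 31-base words around the start that occur once in the genome, in percent. In 4 of the 18 clusters no gene of the range had a start peak.

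The cluster with the most genes of the range, with starts from 21383748 to 22424222 on chromosome 17, held 13 among 19 finger genes. Of these, Zfp983, Zfp942 and Zfp943 had start peaks, and the peak at Zfp942 is the same as that at Zfp943. On chromosome 7, from 42505740 to 43607169, it was 3 of 8 genes of the range, Zfp975, Zfp715 and Zfp719. On chromosome 4, from 146971976 to 147848366, none of 8 had one, and none of 5 in a neighbouring cluster. Median unique words over the genes of the range were 69.8%, 80.3%, 40.2% and 12.4% in that order. In the chromosome 7 cluster of Zfp568 and Zfp566, 3 of 4 genes of the range had start peaks, with a median of 97.8% unique words, and 11 of all 15 finger genes had. In the chromosome 7 cluster that includes Zfp974, none of the 3 genes of the range had a start peak, at a median of 92.0% unique words over these 3, while 3 of all its 8 finger genes had.

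Neither an assigned peak nor a start peak was found for 41 genes, of which 38 were KRAB genes. The last exon of Zfp988, among them, carried a peak of 25 that was assigned to Zfp982. Of these 41 starts, 14 had under 50% unique words and 20 at least 90%. Zfp748, with 23 fingers, was among them, at 87.3% unique words. Neither these 41 genes nor the 44 without an assigned peak are set beside the same share over all protein-coding genes. Whether such genes are many or few in the range therefore cannot be said.

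The last exon, which in KRAB genes usually encodes the fingers, carried a peak in 30 of the 202 genes (14.9%, 10.6 to 20.4%), beside 12.5% of all protein-coding genes. It was 11 KRAB genes (8.40%) and 19 others (26.8%). Median last exons were 2493 bp in KRAB genes and 2319 bp in the others, and 2486 bp in the range against 1270 bp in all genes. The part of exon length in these shares was not tested. The tallest, 342 at Zfp628, was assigned to Nat14. Of the 35 peaks, 20 were of constant height.

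Matches to TATTTTT or TATTTTG, of interest because insulin response sequences were reported for PARIS, were in 9 of 166 start regions (5.42%) and in 9.65% of 16522 RefSeq start regions of the same length. None of the 9 genes had a start peak, against 22.7% of all promoters with a match. All 9 were KRAB genes, a group with a start peak at 30.5% of its genes. Start peaks were called at the GENCODE start, which lay within 1 kb of the RefSeq start for 149 of the 166. In windows of 200 bp centred on the summit, 57 of 584 member peaks held a match (9.76%), as did 9.95% of all peaks and 13.4% of windows 1 kb to the right of the member peaks.

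CCGGAAG was in 18.7% of member start regions and 12.3% of all, ATGGCGG in 10.8% and 5.61%, GGGCGG in 44.0% and 48.2%, and GCATGCGC in 4.22% and 3.77%. CCAAT, the NF-Y motif, was in 55.4% and 38.8%, and within the range in 65.2% of KRAB and 33.3% of other start regions. Each match is a description of letters on either strand and not a bound site.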

How the data were processed

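CUT&Tag was done on mouse hippocampus with an anti-FLAG and an IgG antibody, 1 library each. The authors used Bowtie2, per the labels' protocols, to align trimmed reads to mm10. Duplicates and low-quality alignments were dropped, per the same labels, and SEACR called the peaks with IgG as its control. The deposited peak list gives total and maximum signal per peak, and the deposited annotation gives an assigned symbol and distance. The scaling of the signal, tool versions, SEACR mode and the annotation tool are not given in the sources used here. Removing low-quality alignments can lower signal where sequence is repeated.

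Here peaks were joined to GENCODE M21 on GRCm38.p6 (555 of 584 member peaks had their transcript there, all with equal ends). A start peak touches the 1 kb on either side of the outermost start. Fingers and KRAB were found by pattern in translated proteins, and uniqueness by counting 31-base words over the genome. Scripts were tested on simulated data. Software was Python 3.11.15, pandas 2.3.3, pysam 0.24.0, numba 0.67.0, edlib 1.3.9.post1 and samtools 1.23.1.

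Named genes were the 8 tallest and 8 largest peaks' genes, the 8 with most peaks, the 5 with most fingers, the 3 clusters with most members and 3 fixed lists. Members and lists were chosen with earlier results of these data known. No p-values were computed.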

Additional observations from a re-analysis of the deposited data

How the results depend on the processing

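Of 43 alternatives over 8 results, 36 were planned and 7, on uniqueness and CpG content, were chosen after seeing the data. None changed the sign of the KRAB or the cluster difference. The split of clustered and isolated genes by KRAB match was not among these alternatives. Within each group of that split, clustered genes had the higher share. In 19 of the 43 alternatives a value moved, 17 of them beyond its interval and 2 of them peak counts, which have none. Values over all peaks or genes at the same setting stand in brackets. None is given for last exons or for GENCODE classes, so those shares cannot be set against all genes or peaks. With peaks above the median maximum signal only, member peaks numbered 280, the promoter share was 36.1% (27.6%), the start share 29.7% (27.6%), the median 139 (135), the constant-height share 46.8% (50.9%) and the last-exon share 7.92%. Without constant-height peaks these were 227, 38.8% (32.7%), 27.2% (27.8%) and 139 (134), with 6.44% for last exons. Wider peaks alone (at least 200 bp) gave 51.2% (52.5%) of constant height. The promoter share was 39.5% by GENCODE classes and 20.5% within 1 kb of the assigned start (15.3%). The start share was 49.5% within 3 kb (49.4%), 21.3% with the start overlapped (20.4%), 48.5% at any transcript start (47.6%), 48.9% at unique starts (44.7%) and 52.6% at CpG-rich starts (58.4%). By point values the range thus stood above all genes in start share at first, but below without constant-height peaks and at CpG-rich starts. At each of these settings the all-gene share lay inside the range's 95% interval, so no change of position can be read from them. The median of the range stood below that of all peaks at first, but above in both peak subsets. These settings change which peaks, distances or genes are counted. Beyond that the cause was not tested. The KRAB difference ranged from -36.0 to -19.7 points and the cluster difference from -11.2 to -4.41. No paired analysis was possible because there was 1 library per antibody. With read depth unknown, absence of a peak is not absence of binding.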
